A study of Mus musculus with 14 samples.

Results

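The suprabasal keratins Krt1, Krt2, Krt10, Krt77, Krt78 and Krt80 were followed in epidermal stem cells (EpdSCs) before and during induction of SOX9, a transcription factor of hair follicle stem cells. The 6 genes were taken by symbol from the 54332 genes of the deposited time-course table, which holds TPM, transcript abundance scaled to gene length and to a fixed total of 1000000 in each library. All but Krt2, that is 5 of them, entered the tests, which took the 13110 genes whose TPM averaged 1 or more over the 10 libraries. By this scaling, levels can be compared between genes, but the number of reads behind a value is not known. All mice carried K14rtTA and TRE-myc-Sox9 on a CD1 background, so the Krt14 promoter drove the doxycycline-responsive activator in basal keratinocytes. Back-skin cells of mice labelled male were sorted as negative for CD31, CD45, CD117 and CD140a, CD49f high, CD34 negative and Ly6A high. The 5 groups of 2 libraries each were D0 (no doxycycline, P21), W1 (1 week of doxycycline, P28), W2 (2 weeks, P35), W6 (6 weeks, P63) and W12 (12 weeks). The W12 skin was taken at P0, grafted onto immunocompromised Nude females and left to heal before doxycycline, so grafting and the length of induction cannot be told apart. Age also rose with induction time at W1, W2 and W6, with no untreated mice of those ages, so age and induction cannot be told apart either.

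Keratins are the intermediate filament proteins of epithelia, and a filament is built from pairs of one acidic type I and one basic type II chain. Basal epidermal cells make KRT5 and KRT14, and cells that leave the basal layer switch to KRT1 (type II) and KRT10 (type I). KRT2 is a type II keratin of the upper spinous and granular layers, and KRT77 and KRT78 are further type II keratins of suprabasal epidermis. KRT80 is a type II keratin found in many epithelia and linked to advanced differentiation. The genes therefore read out differentiation in a gate meant for basal cells, where transcripts of a few suprabasal cells and a low level in every cell cannot be told apart. As in any bulk sample, fewer cells of a type and less RNA per cell cannot be told apart.

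By the GENCODE annotation of GRCm38, Krt10 lies on chr11:99385254-99389364, among the type I genes, with 8 exons in its first transcript. The other members lie on the minus strand of chromosome 15, as Krt10 does on its own, each with 9 exons. They are Krt80 at chr15:101347444-101370162, Krt2 at chr15:101810689-101818169, Krt1 at chr15:101845426-101850794, Krt77 at chr15:101858731-101869705 and Krt78 at chr15:101946001-101954287. Krt2, Krt1 and Krt77 are direct neighbours in the row of 27 keratin genes of chromosome 15, and Krt80 lies 440.5 kb from Krt2 at the end of the row. None of the members shared a 50-base stretch with the transcripts of another gene.

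The 250 bases before the annotated start are shown for the member with the highest mean over the 10 libraries (Krt10), the tested member with the largest ratio of highest to lowest TPM (Krt77) and the member seen almost only at D0 (Krt2). The sequences are from RefSeq for GRCm38.p6, where windows matched Krt2, Krt10, Krt77 and Krt78. Capitals mark matches, on either strand, to the TATA box TATAAA, the AP-1 motif TGANTCA, the SOX core ACAANG, the GATA motif AGATAA and the KLF/SP motif CCCGCCC.
Krt10, chr11:99389365-99389614, minus strand: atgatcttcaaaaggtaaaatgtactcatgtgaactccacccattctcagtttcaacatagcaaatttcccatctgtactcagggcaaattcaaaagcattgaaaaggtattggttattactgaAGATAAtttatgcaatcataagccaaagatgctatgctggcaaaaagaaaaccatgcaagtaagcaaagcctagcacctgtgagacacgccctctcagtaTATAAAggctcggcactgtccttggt
Krt77, chr15:101869706-101869955, minus strand: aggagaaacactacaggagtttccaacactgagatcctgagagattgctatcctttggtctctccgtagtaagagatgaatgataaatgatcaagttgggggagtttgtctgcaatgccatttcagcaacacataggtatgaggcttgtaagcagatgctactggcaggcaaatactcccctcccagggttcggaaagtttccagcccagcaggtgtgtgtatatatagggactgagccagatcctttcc
Krt2, chr15:101818170-101818419, minus strand: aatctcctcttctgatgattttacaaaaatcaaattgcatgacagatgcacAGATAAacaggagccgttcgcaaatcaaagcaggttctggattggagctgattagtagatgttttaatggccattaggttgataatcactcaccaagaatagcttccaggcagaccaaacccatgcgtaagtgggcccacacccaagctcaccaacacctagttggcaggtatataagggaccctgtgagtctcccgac
The Krt10 window held TATAAA at 26 bases and AGATAA at 126 bases before the start, and the Krt2 window held AGATAA at 199 bases. Neither the Krt77 window nor that of Krt78 held any of the letters searched. Only these letters were searched, so other forms of a motif, such as other TATA boxes, were not looked for in any window. Among 32851 windows of the same length, 12.37% held TATAAA, 6.75% TGANTCA, 36.32% ACAANG, 9.99% AGATAA and 23.4% CCCGCCC.

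All 8 basal epidermal markers (Krt5, Krt14, Krt15, Itga6, Itgb4, Col17a1, Trp63 and Ly6a) were at 1 TPM or more in every library, with summed levels from 35409 to 60457 TPM. The MYC-SOX9 transgene entry stood at 89.6 and 45.6 TPM at D0 and between 606 and 3414 TPM in the 8 libraries with doxycycline. D0 replicate 2, labelled male, held 4.61 TPM of Xist and 0.0279 TPM of the Y-linked Ddx3y, while its partner held 0.00103 and 32.1 TPM, and the W12 libraries held both transcripts at 3.50 TPM or more. Differences of Krt1, Krt10, Krt77 and Krt80 from D0 are therefore also given without that library at the times discussed. The W12 libraries also carried 5 of 5 endothelial markers at 1 TPM or more, with sums of 65.5 to 139 TPM against 0.142 to 1.85 TPM elsewhere, and immune sums of 103 to 126 TPM, with only 1 of 8 immune markers at 1 TPM or more. The fibroblast markers summed to 13.7 to 28.1 TPM at W12 and reached 52.2 TPM in W6 replicate 2. Nearly all of this was Dcn (13.2 and 27.2 TPM at W12, 51.2 TPM in W6 replicate 2). The other 5 of the 6 fibroblast markers were under 1 TPM in both libraries at W6 and at W12. The 5 sebaceous gland markers summed to 60.4 to 72.2 TPM at D0, 147 to 153 TPM at W1, 380.3 to 383 TPM at W2, 276 to 378 TPM at W6 and 182 to 252 TPM at W12, mostly from Mgst1 from W1 on, while Awat1 was at 0.293 TPM or less in every library. The 8 bulge markers summed to 250 to 316 TPM at D0 and 329 to 591 TPM later, mostly from Postn. The part of such cells in the results on keratins and other differentiation genes was not tested.

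The members parted into different courses. Krt77 and Krt80 did not pass the test against D0 at W1 or W2, and then fell at W6 and again at W12. Krt2 was near 0 from W1 on, and Krt10 and Krt78 did not pass the test at any time. Krt1 did not pass against D0 at any single time. It was higher at W6 and W12 than at W1 and W2 in a comparison chosen after its values were seen, which did not pass without the W12 libraries (1.56 on the log2 scale, limma adjusted p = 0.0763). Against D0, none of the 5 tested members passed limma's test (adjusted p under 0.05 over all 13110 genes) at W1, where 9.89% of all genes passed, nor at W2, where 15.7% did. The same 2 members, Krt77 and Krt80, were lower at W6 and at W12, where 14.1% and 25.1% of all genes were lower. No member was higher than D0 at either time, as 18.3% and 17.9% of all genes were. At an unadjusted p under 0.05 the count of tested members was also 0 at W1 and W2. Between W1 and W2 none of the 5 passed, and 0.114% of all genes did. These shares moved with the libraries kept: with 1 left out in turn, 377 to 1773 genes passed at W1 against D0 (1296 with all), 652 to 2647 at W2 (2058 with all), 207 to 3179 between W2 and W6, and 0 to 83 between W1 and W2 (15 with all).

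**Figure D1:**
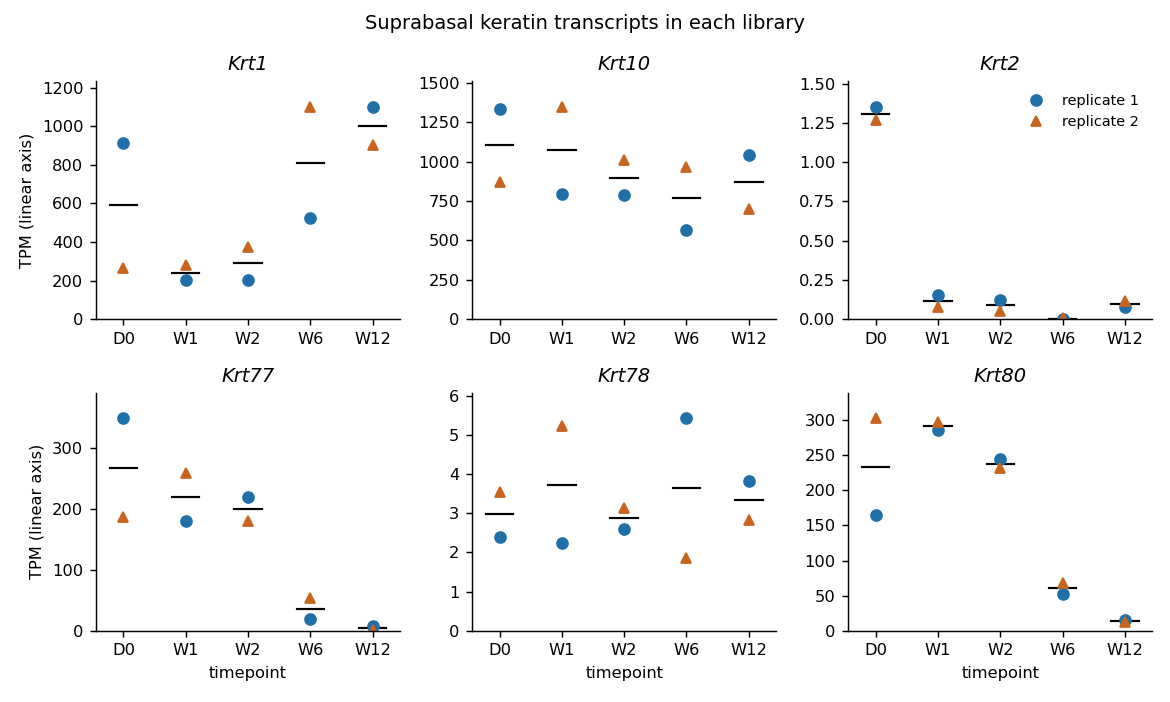
TPM of the 6 suprabasal keratins in each of the 10 libraries on linear axes (circles, replicate 1; triangles, replicate 2; lines, mean of 2). Krt77 and Krt80 drop at W6 and again at W12, Krt2 stands above 1 TPM only at D0, and the replicates of Krt10 and Krt78 overlap at all times.

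Krt10, the type I partner and the most abundant member on average, had 1335 and 871 TPM at D0, 792 and 1349.6 TPM at W1, 786 and 1010.0 TPM at W2, 568 and 966 TPM at W6 and 1041 and 700.0 TPM at W12. Each timepoint overlapped with its neighbours in the order of means, and the 10 values spanned 2.38-fold. By TPM the gene ranked between 95 and 296 in every library. The difference in mean log2(TPM + 1) at W12 was -0.34 (95% interval -1.16 to 0.48, limma adjusted p = 0.476), so a fall of up to about that lower bound, or a smaller rise, could not be told from no change. At W6 it was -0.54 (SE 0.36, limma adjusted p = 0.277). Without D0 replicate 2 these differences were -0.64 (adjusted p = 0.289) and -0.85 (adjusted p = 0.212).

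Krt1, the type II partner, had 915 and 265 TPM at D0, 201 and 279.7 TPM at W1, 202 and 376 TPM at W2, 524 and 1098 TPM at W6 and 1102 and 904 TPM at W12. The D0 libraries lay far apart, with D0 replicate 2 inside the range of W1 and W2 and D0 replicate 1 inside that of W6 and W12. All 4 late libraries were above all 4 of W1 and W2, as were those of 16.1% of the tested genes. Against D0, the mean log2 level differed by -1.05 at W1 (SE 0.57, limma adjusted p = 0.285; without D0 replicate 2, -1.94, adjusted p = 0.0552; without D0 replicate 1, -0.16) and by 1.02 at W12 (SE 0.57, limma adjusted p = 0.178). Without D0 replicate 2 the W12 difference was 0.13 (adjusted p = 0.873), and without D0 replicate 1 it was 1.91 (adjusted p = 0.0153). At W6 it was 0.62 (adjusted p = 0.427), -0.27 without D0 replicate 2 and 1.51 (adjusted p = 0.0434) without D0 replicate 1. Which D0 library was kept thus decided whether Krt1 passed as higher than D0 at W6 and W12.

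In a comparison chosen after the values were seen, of W6 and W12 with W1 and W2, Krt1 was higher by 1.76 on the log2 scale (SE 0.40, 95% interval 0.85 to 2.68, limma adjusted p = 0.00702), while 20.5% of all genes were higher. In the same comparison Krt77 (-4.09, adjusted p = 0.000283) and Krt80 (-3.13, adjusted p = 1.47e-05) were lower, as were 29.3% of all genes. With W6 alone as the late group and the 2 W12 libraries left out, the difference was 1.56 (adjusted p = 0.0763). The step from W2 to W6 was 1.46 (SE 0.57, limma adjusted p = 0.111). It passed without D0 replicate 2 (adjusted p = 0.0356) and without D0 replicate 1 (adjusted p = 0.0354), neither of which enters the difference itself. Over the whole course, limma's F test gave an adjusted p of 0.0423 for Krt1, 0.000726 for Krt77 and 4.06e-05 for Krt80, against 0.621 for Krt10 and 0.982 for Krt78, in a test that 57.5% of all genes passed. The Krt1 call in that F test was lost with the replicate number as a block, and when either W1 library, W2 replicate 1, W6 replicate 2 or either W12 library was left out.

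Within a library, the ratio of Krt1 to Krt10 TPM was 0.685 and 0.305 at D0, 0.254 and 0.207 at W1, 0.258 and 0.372 at W2, 0.923 and 1.14 at W6, and 1.06 and 1.29 at W12. All 4 values of W6 and W12 were above the 6 earlier ones. Between the 8 doxycycline libraries as one group and the 2 at D0, the mean log2 ratio differed by 0.24 (two-sided exact permutation test, p = 0.644, adjusted over 2 derived values 0.689, smallest p possible 0.0222). Between W6 and W12 and the W1 and W2 libraries it differed by 2.04 (two-sided exact permutation test, p = 0.0286, the smallest that 4 against 4 libraries can give, adjusted over 2 values 0.0571). That second comparison was chosen after the values were seen, and its adjusted p did not pass. The summed type II members stood at 0.624 to 0.852 per Krt10 transcript at W1 and W2 and at 1.06 to 1.32 at W6 and W12, with D0 at 1.07 and 0.873.

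Krt77, a type II keratin next to Krt1 on the chromosome, was at 349.8 and 187 TPM at D0, 180.5 and 260.3 TPM at W1, 219.6 and 180.6 TPM at W2, 19.4 and 53.5 TPM at W6 and 8.19 and 1.21 TPM at W12. The first 3 timepoints overlapped, the W6 libraries were below all of them, and the W12 libraries were below both W6 libraries. All 4 late libraries lay below all 6 earlier ones, as for 12.2% of the tested genes. The gene ranked between 454 and 874 in the 6 libraries up to W2 and between 7896 and 12821 at W12. At W6 it was lower than at D0 by -2.95 on the log2 scale (SE 0.66, limma adjusted p = 0.0112) and at W12 by -5.83 (SE 0.66, limma adjusted p = 0.000304).

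Without D0 replicate 2 these differences in Krt77 were -3.40 at W6 and -6.28 at W12. With each library left out in turn, the W12 difference ranged from -6.86 to -4.80. The W6 difference from D0 did not pass without W6 replicate 1 (-2.24, adjusted p = 0.0611). From W2 to W6 the change was -2.59 (limma adjusted p = 0.0349; replicate block, adjusted p = 0.0522), in a step where 8.31% of all genes were lower. That step no longer passed when any one of the W1 and W2 libraries or W6 replicate 1 was left out, with adjusted p from 0.0569 to 0.172. From W6 to W12 it was -2.89 (limma adjusted p = 0.0189), where 13.5% of all genes were lower, and this call was lost under 4 of 19 alternatives, among them without W6 replicate 2 (-2.18, adjusted p = 0.0803) and without W12 replicate 2 (-1.86, adjusted p = 0.0934).

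Krt80 had 165 and 303 TPM at D0, 286 and 297 TPM at W1, 244 and 232 TPM at W2, 52.5 and 68.7 TPM at W6 and 15.4 and 12.6 TPM at W12. The W1 libraries were both above the W2 libraries, which lay inside the range of D0. W6 lay below all earlier libraries and W12 below W6, an order that Krt77 shared and that 6.86% of the tested genes showed. The SD between replicates was 97.6 TPM at D0 and 1.95 to 11.4 TPM from W1 on (n = 2 each). The difference from D0 was -1.88 on the log2 scale at W6 (SE 0.26, limma adjusted p = 0.00137) and -3.91 at W12 (SE 0.26, limma adjusted p = 2.24e-05). It was -1.44 (adjusted p = 0.00345) and -3.47 (adjusted p = 9.28e-05) without D0 replicate 2. The steps from W2 to W6 (-1.97, limma adjusted p = 0.00402) and from W6 to W12 (-2.03, limma adjusted p = 0.00182) passed with every single library left out in turn. Krt80 at W1 was 0.38 above D0 (limma adjusted p = 0.403), and this difference became 0.82 (adjusted p = 0.0431) without D0 replicate 2.

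Krt78, a type II keratin, was low throughout, at 2.40 and 3.55 TPM at D0, 2.23 and 5.21 TPM at W1, 2.60 and 3.14 TPM at W2, 5.42 and 1.86 TPM at W6 and 3.82 and 2.83 TPM at W12. All neighbouring timepoints overlapped. The W12 level differed from D0 by 0.13 on the log2 scale (95% interval -0.84 to 1.09, limma adjusted p = 0.827), and 2-fold changes in either direction are near the ends of that interval.

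Krt2, the keratin of the upper spinous and granular layers, had 1.35 and 1.27 TPM at D0, 0.154 and 0.0794 TPM at W1, 0.124 and 0.0513 TPM at W2, 0.0789 and 0.114 TPM at W12, and was listed at 0 and 0.0069 TPM at W6. Both D0 libraries were above all 8 later ones, as were those of 3.76% of the 38965 genes with a TPM above 0. The gene missed the minimum of 1 TPM and was not tested with the others. With all genes above 0 TPM kept, its mean log2(TPM + 1) was lower than at D0 by -1.05 after 1 week, -1.09 after 2 weeks, -1.20 after 6 weeks and -1.07 after 12 weeks, with limma adjusted p of 0.00874, 0.00549, 0.002 and 0.0015 in that order. On the log2(TPM + 1) scale such values understate the change of a gene near 1 TPM.

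**Figure D2:**
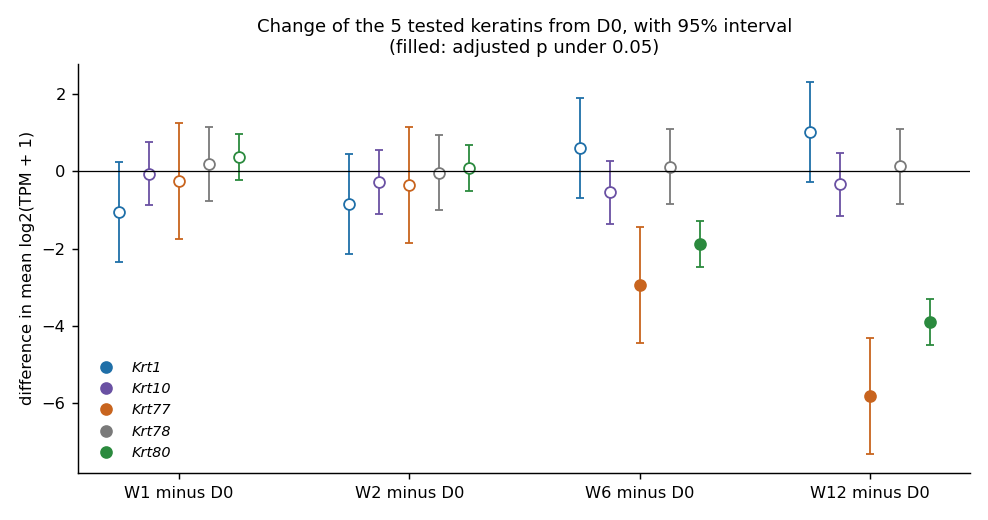
Difference in mean log2(TPM + 1) between each doxycycline timepoint and D0 for the 5 tested keratins (points, limma estimate; bars, 95% interval; filled, adjusted p under 0.05; n = 2 libraries a timepoint). The filled points are Krt77 and Krt80 at W6 and W12, the last at -5.83 and -3.91.

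The 6 genes together made up 4.58% and 2.67% of all keratin TPM at D0, 2.92% and 4.20% at W1, 3.22% and 3.73% at W2, 1.98% and 4.45% at W6 and 3.74% and 2.62% at W12, over the 54 keratin genes of the table. The groups overlapped throughout. The mean share with doxycycline minus that at D0 was -0.269 percentage points (two-sided exact permutation test, p = 0.689, also after adjustment), and it was positive, at 0.487, when the basal keratins alone served as denominator (exact p = 0.578). Within the 6-gene sum, Krt10 took 43.2% to 61.6% in every library. Krt1 took 12.8% to 33.0% up to W2 and 44.8% to 55.8% afterwards. Krt77 took 10.02% to 15.1% up to W2, 1.66% and 2.45% at W6, and 0.377% and 0.0748% at W12. Krt80 went from 5.95% to 19.6% up to W2, to 4.49% and 3.14% at W6 and 0.709% and 0.780% at W12. At W12 the suprabasal keratin transcripts were thus almost all Krt1 and Krt10.

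**Figure D3:**
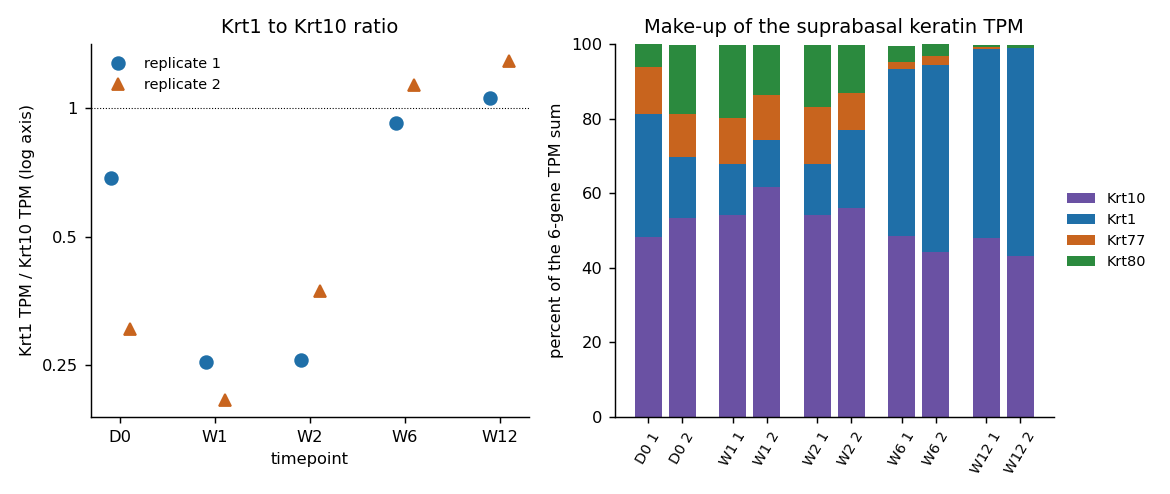
Left, ratio of Krt1 to Krt10 TPM in each library (log axis; dotted line, equal TPM); right, percent of the 6-gene TPM sum taken by each member per library (bars from 0 to 100%; Krt2 and Krt78, at most 0.0776% and 0.464%, are not drawn). The ratio is 0.207 to 0.685 up to W2 and 0.923 to 1.29 afterwards, and the Krt77 and Krt80 segments shrink at W6 and W12.

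The remaining keratins were read as lists. Of 4 wound and stress keratins, which activated keratinocytes make, all 4 were higher than D0 at W12, where 17.9% of all genes tested were, from 1.60 for Krt17 to 9.77 for Krt6b on the log2 scale (limma adjusted p from 2.98e-06 to 0.00372). At W2, Krt6a (3.78), Krt6b (1.80) and Krt17 (1.06) were higher, and Krt16 was lower by -2.09 (adjusted p = 0.003), where 9.06% and 6.64% of all genes were higher and lower. The W2 call of Krt17 was lost under 15 of 19 alternatives (adjusted p 0.0558 to 0.251), among them leaving out either library of D0, W1, W2 or W12. That of Krt6b was lost under 8 of 19 (adjusted p 0.0538 to 0.156), among them leaving out D0 replicate 2 or either library of W2 or W12. Of 4 simple-epithelial keratins (Krt7, Krt8, Krt18 and Krt19), none passed up to W6 and 4 were higher at W12, by 2.15 to 6.33, again where 17.9% of all genes were, in the libraries that also held the endothelial markers. The 2 W12 libraries lay far apart, at 4.31 and 12.7 TPM for Krt7, 46.3 and 145 TPM for Krt8, 32.9 and 105 TPM for Krt18 and 44.4 and 156 TPM for Krt19. Of 3 basal keratins, Krt5 (-0.95, adjusted p = 0.0027; with only the D0 and W12 libraries in the fit, 0.0863) and Krt15 (-5.37, adjusted p = 5.73e-05) were lower at W12, where 25.1% of all genes tested were, and Krt14 differed by 0.26 (adjusted p = 0.308). Krt79 is a keratin of the upper hair follicle that lies between Krt77 and Krt78 on the chromosome. It was higher by 3.39 at W1 (limma adjusted p = 0.00442), 3.87 at W2 (adjusted p = 0.00175) and 4.14 at W6 (adjusted p = 0.000702). At W12 Krt79 stood 0.91 above D0 (adjusted p = 0.173). Krt23 was higher by 1.31 at W2 (adjusted p = 0.00428; without W2 replicate 2, 0.0538), and Krt24 was lower by -1.61 at W12 (adjusted p = 0.0171), a call lost without D0 replicate 2, without W12 replicate 2 or with all genes above 0 TPM kept (adjusted p 0.0706 to 0.109). Krt9 and Krt76, keratins of palm and sole skin and of oral epithelium, missed the minimum of 1 TPM.

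The 143.6 kb from Krt2 to Krt78 hold 7 keratin genes, and at W12 the mean log2(TPM + 1) minus that at D0 was -1.07 for Krt2, 1.02 for Krt1, -5.83 for Krt77, 0.040 for Krt76, -1.36 for Krt4, 0.91 for Krt79 and 0.13 for Krt78, in chromosomal order. The positive differences of Krt1 (limma adjusted p = 0.178), Krt79 (0.173) and Krt78 (0.827) did not pass, and Krt76 missed the minimum of 1 TPM, so no gene of the span passed as higher than D0 at W12. Krt4 and Krt76 are keratins of internal stratified epithelia and were described here for their position, with values seen.

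**Figure D4:**
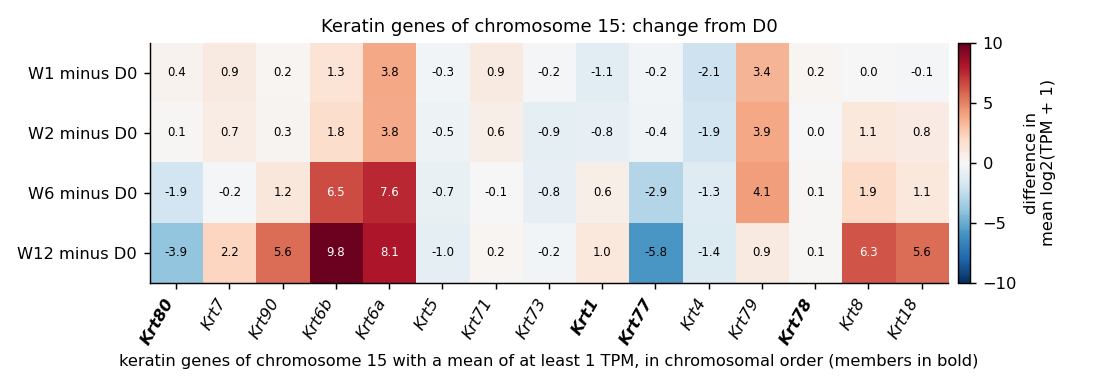
Heat map of the difference in mean log2(TPM + 1) from D0 (rows, timepoints; columns, keratin genes of chromosome 15 with a mean of at least 1 TPM in chromosomal order, members in bold; no test is shown). Krt77 (-5.83 at W12) stands beside Krt1 (1.02), and the highest values are those of Krt6b (9.77) and Krt6a (8.10).

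Other genes of epidermal differentiation were read from a list of 38 spinous and granular layer genes, of which 32 were tested. More of them were higher than lower at each time: 5 were higher and 2 lower than D0 at W1, 10 and 2 at W2, 20 and 2 at W6, and 18 and 3 at W12. Of all genes tested, 5.79% were higher and 4.10% lower at W1, 9.06% and 6.64% at W2, 18.3% and 14.1% at W6, and 17.9% and 25.1% at W12. The list's median log2 difference was 1.50 at W12, against -0.077 over all genes tested, and 0.88 at W2, against 0.064. The W2 count fell when either W2 library was left out, and the count over all genes also moved with the libraries kept. With all genes above 0 TPM, 4 of the list passed in all. At W12 the members that changed most were Lce3c (9.40), Sprr1b (8.10), Cnfn (6.93) and Sprr1a (4.10), components of the cornified envelope or its formation. The 3 lower at W12 were Lor (-2.60, limma adjusted p = 0.0019), which encodes the envelope protein loricrin, Dsg1a (-1.44) and Serpinb2 (-1.21). At W2 the members that changed most were Flg (3.20), the filaggrin precursor, Serpinb2 (-3.05), a protease inhibitor, Sprr1b (3.02) and Dsc1 (2.74), a desmosomal cadherin of suprabasal layers. At W12 Flg differed from D0 by 0.21 (limma adjusted p = 0.796). The W2 call of Flg was lost with all genes above 0 TPM kept (adjusted p = 0.0599) and without W2 replicate 2 (adjusted p = 0.069). That of Sprr1b was lost under 8 of 19 alternatives (adjusted p 0.0537 to 0.17), among them leaving out D0 replicate 2 or either library of W2 or W12.

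Of 33 regulators of the switch from basal to spinous cells, 31 were tested. At W2, 2 were higher and 9 lower than D0, where 9.06% and 6.64% of all genes tested were. At W12, 2 were higher and 18 lower, where 17.9% and 25.1% of all genes were. The list's median at W12 was -0.92, against -0.077 over all genes. The largest changes at W12 were in Gata3 (-3.35), a transcription factor, and in the Notch pathway, with its ligands Dll1 (-3.01) and Jag2 (-2.67) and its target Hes1 (-2.93). At W2 Hes1 was already lower (-2.21), as were Sfn (-2.23), which encodes 14-3-3 sigma, and Ovol1 (-1.64), a zinc finger repressor, while Vdr, the vitamin D receptor, was higher (1.82). The Ovol1 call was lost with all genes above 0 TPM kept (adjusted p = 0.0547) and without W2 replicate 2 (adjusted p = 0.0605). In all, 4 of the list passed at W2 with all genes above 0 TPM kept. The list's W2 count also fell without either W2 library or D0 replicate 2, and the count over all genes moved with the libraries kept as well.

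Keratin filaments are tied to desmosomes and hemidesmosomes by plakins and desmosomal proteins. Of 16 such genes, 15 were found and 14 tested. At W12, 3 were higher and 8 lower, where 17.9% and 25.1% of all genes tested were, and the list's median was -1.05, against -0.077 over all genes. Among them were Dsc2 (3.62) and Dsc1 (2.20), both desmosomal cadherins, and the plakins Ppl (-2.27) and Plec (-2.17). At W2, 1 of the 14 was higher, Dsc1 (2.74), and 1 lower, Dsg1b (-0.82), another desmosomal cadherin, where 9.06% and 6.64% of all genes were, so the list's shares were near those of all genes. The Dsg1b call (adjusted p = 0.0234) was lost under 5 of 19 alternatives (adjusted p 0.0705 to 0.167): without D0 replicate 2 or either W2 library, with all genes above 0 TPM kept and with only the D0 and W2 libraries in the fit.

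The genes most like each member were taken by Pearson's r of log2(TPM + 1) over the 10 libraries, of which the 2 of each timepoint share their group, and is a description with no test. For Krt80 they were Zfp318 (0.993), Map3k1 (0.993), a kinase of the stress-activated cascade, and Arid1b (0.991), a chromatin remodelling subunit. Krt77 was most like Dock8 (0.978), Sult5a1 (0.971) and Mlycd (0.970), and Krt1 most like Rab9 (0.980), a small GTPase of endosomes, 3110040N11Rik (0.964) and Serpinb12 (0.960), a protease inhibitor. Lower values were found for Krt10 (Zfp407, 0.883; Ech1, 0.881; Gm14288, 0.880) and for Krt78 (Gm27533, 0.878, Gm45246, 0.824, and Rpl35a, 0.798), members with no call at any time. Gm27533 was listed at 0 TPM in 7 of the 10 libraries, so its r rests on 3 values, and Gm45246 in 3. Among the members, r was 0.955 for Krt77 with Krt80, 0.138 for Krt1 with its partner Krt10, -0.606 for Krt1 with Krt77 and -0.783 for Krt1 with Krt80.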

How the data were processed

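RNA-seq libraries of sorted cells were analysed from the gene-level TPM deposited by the authors, who trimmed reads with Skewer, quantified them with Salmon 1.4.0 against GENCODE GRCm38 transcripts plus the transgene, and summarised them with Tximport 1.12.3. TPM sum to a fixed total per library and keep no read depth, so precision is limited by n = 2. The study calls the 2 libraries of a timepoint biological replicates, the labels do not tie them to animals, and p-values measure the spread between them. TPM were tested in place of counts with limma 3.58.1 (R 4.3.3; lmFit and eBayes with trend) on log2(TPM + 1), for genes averaging 1 TPM or more, in 1 fit of 5 timepoint means over 10 libraries, with Benjamini-Hochberg adjustment over all 13110 genes and a threshold of 0.05. The ratio and share were compared by exact permutation tests (Python 3.11.15). The procedure was tested on simulated data. Differences of low genes are compressed by the added 1. The members and gene lists were chosen with earlier results of these data known. Named were the 6 members, the 3 genes most like each tested member, the listed keratins and, of each other list, up to 4 genes past the threshold with the largest change at W12 and at W2. The alternatives were another pseudocount (0.1), other filters, 2 scalings, no variance trend, fewer libraries, a replicate block and each library left out. Positions are from GENCODE for GRCm38 and upstream windows from RefSeq. A table of the authors' own comparison of embryonic placode cells (fold changes and p-values) was not used. Proteins were not analysed here.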

Additional observations from a re-analysis of the deposited data

How the results depend on the processing

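With 2 libraries per timepoint and no read depth, small changes of Krt10 and Krt78 could not be detected. Krt80 at W6 and W12 against D0, and Krt77 at W12 against D0, passed under every alternative run. Keeping all genes above 0 TPM gave 1 member called (Krt2) at W1 and at W2 against D0, where none was called, and 1 in place of 2 for W6 against W2 and for W12 against W6, since Krt77 was lost, as it also was at W6 against D0. For W6 against W2, 1 member was called with a pseudocount of 0.1 and 1 with the replicate block, and for W12 against W6, 1 with only the compared libraries in the fit. Leaving out 1 library gave 0 to 1 members at W1 and 1 to 3 at W6 against D0, 1 to 3 for W6 against W2 and 1 to 2 for W12 against W6. The cause of these changes was not tested.

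The deviations of same-numbered libraries of different timepoints correlated at -0.129 to 0.182. With 2 libraries per timepoint this cannot show whether they shared a batch, and the labels give only a number. The replicate block changed the number of members called only in the step from W2 to W6 (1 in place of 2) and in the F test (2 in place of 3, without Krt1). For pairs of groups under -0.1, crossed pairing gave 0 members called at W1 against D0, 2 at W6 against D0 and 2 at W12 against W6.

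The log2 ratio of Krt1 to Krt10 with doxycycline against D0 turned to -0.131 without the 2 W12 libraries and ranged from -0.344 to 0.83 with 1 library left out. The suprabasal share of keratin TPM turned to 0.487 with basal keratins as denominator and ranged from -1.22 to 0.687 with 1 library left out. Differences that did not pass with all libraries and changed sign with 1 library left out are given by their lowest and highest log2 value. Krt1 at W1 against D0 kept its sign, at -1.94 to -0.16. For Krt1 the others were -1.73 to 0.056 at W2 and -0.27 to 1.51 at W6 against D0 (1.51 passing, without D0 replicate 1), -0.23 to 0.66 for W2 against W1 and -0.14 to 0.93 for W12 against W6. For Krt10 they were -0.45 to 0.32 at W1 and -0.58 to 0.033 at W2 against D0, -0.60 to 0.17 for W2 against W1, -0.65 to 0.12 for W6 against W2 and -0.18 to 0.59 for W12 against W6. Krt77 ranged from -0.69 to 0.21 at W1 and from -0.81 to 0.090 at W2 against D0, and from -0.38 to 0.14 for W2 against W1. Krt80 ranged from -0.054 to 0.82 at W1 and from -0.35 to 0.53 at W2 against D0. Krt78 ranged from -0.28 to 0.66 at W1, -0.24 to 0.18 at W2, -0.46 to 0.71 at W6 and -0.082 to 0.34 at W12 against D0. In the later steps it ranged from -0.69 to 0.25 for W2 against W1, -0.43 to 0.73 for W6 against W2, -0.58 to 0.59 for W12 against W6 and -0.25 to 0.34 for the late against the early doxycycline libraries. Quantile normalization turned Krt78 at W6 against D0 to -0.061. TPM set the median of all genes at -0.16 for W12 against W6 and median-ratio scaling at -0.0087, and Krt77 and Krt80 passed under both.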
